A study of Mus musculus with 13 samples.

Results

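A set of 10 genes of the NF-kB system were followed across normal and malignant mouse plasma cells: Map3k14, Nfkb1, Nfkb2, Relb, Traf2, Traf3, Birc2, Birc3, Tnfaip3 and Nfkbia. They were taken by symbol from a table of raw read counts for 22997 gene symbols, which held all 10. RNA was sequenced in bulk from 50000 bone marrow cells per library, sorted on CD138 (syndecan-1, which plasma cells carry) together with CD45.2, leaving out cells with B220. The 13 libraries fall into 6 groups, all on the C57/BL6 background. VQ D1 (2 libraries), VQ D4 (1) and VQ D5 (2) are recipients of donor-derived myeloma cells that carried the Vκ*MYC transgene, the Nras LSL Q61R/+ allele and IgG1-Cre. The tVk12653 group (2) is recipients of a transplanted line of that name. V (3) is mice with Vκ*MYC and IgG1-Cre and no engineered Nras allele, and WT (3) is wild-type mice. Vκ*MYC places MYC under kappa light chain elements and becomes active as B cells pass through germinal centres, IgG1-Cre acts in B cells that transcribe the gamma 1 locus, and Cre removes the stop cassette (LSL) in front of the mutant Nras. Cells of the VQ and tVk12653 groups came from transplant recipients and those of V and WT did not, so genotype, line and transplantation cannot be told apart between them. Each VQ donor and tVk12653 is a single tumour source, so a comparison of one of them speaks of its recipients. Neither ages nor sexes are given in the sources used here, nor is it said that the WT and V libraries came from separate mice; p-values then measure the spread between these libraries, which may be technical.

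NF-kB factors are dimers of Rel-domain proteins held inactive until a signal frees them. In the classical pathway, receptor signals activate the IKK complex, which removes inhibitors such as IkBα and releases dimers of p50 (from Nfkb1) with RelA or c-Rel. In the alternative pathway, the kinase NIK (Map3k14) accumulates, p100 (from Nfkb2) is cut to p52, and p52 with RelB moves to the nucleus. NIK is normally kept scarce by a complex in which TRAF3 holds NIK, TRAF2 bridges, and the ubiquitin ligases cIAP1 (Birc2) and cIAP2 (Birc3) mark it for destruction. Plasma cells depend on survival signals from BAFF and APRIL through these pathways, and in human multiple myeloma loss of TRAF3 or of the BIRC2 and BIRC3 region and gain of MAP3K14 are recurrent routes to constitutive NF-kB activity. Nfkbia, Tnfaip3, Nfkb2, Relb and Birc3 are themselves known NF-kB targets.

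The promoter windows of 5 members are shown because these genes either carry NF-kB consensus letters or, in the case of Map3k14, show the widest gap between VQ and tVk12653. They are RefSeq promoters of GRCm38.p6, 250 bases before to 50 after an annotated start, read 5′ to 3′ on the gene's strand. Capitals mark matches to the kappa B consensus, which was searched by that name on both strands.
Nfkb2 (chr19:46304487-46304786, plus strand): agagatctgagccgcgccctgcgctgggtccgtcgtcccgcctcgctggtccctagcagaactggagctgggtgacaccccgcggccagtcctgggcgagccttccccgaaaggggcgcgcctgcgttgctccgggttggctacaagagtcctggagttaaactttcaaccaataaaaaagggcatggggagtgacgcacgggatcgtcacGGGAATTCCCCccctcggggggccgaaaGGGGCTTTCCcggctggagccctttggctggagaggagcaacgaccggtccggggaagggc
Nfkbia (chr12:55492598-55492897, minus strand): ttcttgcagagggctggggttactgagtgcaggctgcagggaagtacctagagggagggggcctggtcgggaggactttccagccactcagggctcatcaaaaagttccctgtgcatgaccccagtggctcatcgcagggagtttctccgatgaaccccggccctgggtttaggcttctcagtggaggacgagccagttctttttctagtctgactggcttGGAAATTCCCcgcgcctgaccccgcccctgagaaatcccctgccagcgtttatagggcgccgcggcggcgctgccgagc
Tnfaip3 (chr10:19015361-19015660, minus strand): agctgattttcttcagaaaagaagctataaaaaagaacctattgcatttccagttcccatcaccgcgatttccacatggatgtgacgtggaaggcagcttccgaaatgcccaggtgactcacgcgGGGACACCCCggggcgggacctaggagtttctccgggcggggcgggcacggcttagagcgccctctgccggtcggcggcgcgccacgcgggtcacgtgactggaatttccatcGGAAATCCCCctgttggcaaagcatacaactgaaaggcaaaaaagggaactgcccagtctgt
Traf3 (chr12:111166120-111166419, plus strand): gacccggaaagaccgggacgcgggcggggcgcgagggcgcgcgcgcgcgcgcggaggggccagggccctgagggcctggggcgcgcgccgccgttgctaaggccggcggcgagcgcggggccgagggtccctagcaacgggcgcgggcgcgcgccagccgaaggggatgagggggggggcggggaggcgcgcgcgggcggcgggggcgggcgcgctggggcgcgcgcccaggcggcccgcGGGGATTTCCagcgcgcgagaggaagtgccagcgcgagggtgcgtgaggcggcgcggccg
Map3k14 (chr11:103267352-103267651, minus strand): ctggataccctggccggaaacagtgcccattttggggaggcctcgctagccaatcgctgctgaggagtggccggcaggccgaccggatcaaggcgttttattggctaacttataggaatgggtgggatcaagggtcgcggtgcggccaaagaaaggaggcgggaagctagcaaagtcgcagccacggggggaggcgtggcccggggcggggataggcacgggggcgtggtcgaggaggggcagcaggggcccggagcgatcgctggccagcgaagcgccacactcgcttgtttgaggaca
The Nfkb2 window holds GGGAATTCCC at -39 and GGGGCTTTCC at -11 from the start, and GGAATTCCCC, shifted by 1 base, overlaps the first of them. Nfkbia holds GGAAATTCCC at -29, Tnfaip3 holds GGGACACCCC at -125 and GGAAATCCCC at -12, and Traf3 holds GGGGATTTCC at -10. The Map3k14 window holds no match. Promoters of 8 of the 10 members were in the table, with 12 windows in all, since some genes have more than 1 start; Nfkb1 and Relb were not in it. A match stood in 6 of the 12 windows and in none of those of Traf2, Birc2, Birc3 and Map3k14, against 8.46% of all 32851 promoter windows. Of those 6 windows 3 are of Nfkb2, and 2 of these overlap and share 1 match, GGGACTTTCC, which is thus counted in both. A match describes letters and not a bound site.

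Total counts per library were 2096815 to 8512281, and 3 counts equal 0.326 to 1.48 CPM (read counts per effective library size, which was scaled by trimmed means of M values). CPM is given per library throughout. Log2 fold changes are given ± standard error with p-values of edgeR's quasi-likelihood test, Benjamini-Hochberg adjusted over all genes tested, and a gene is said to have risen or fallen where the adjusted p is under 0.05. VQ as a whole was tested over its 3 donors, with the libraries of a donor summed, and single groups were tested over libraries. All 10 members passed the low-count filter of both fits. The plasma cell markers Sdc1, Xbp1 and Irf4 stood at 365 CPM or more in each library, whereas Mzb1 stood at 0.562 CPM in VQ D4 and 6.70 to 7.24 in tVk12653. The immunoglobulin joining chain Jchain was at 44.5 CPM in VQ D4, 696 to 6739.5 in the other transplanted libraries, and 33543 CPM or more in V and WT. The summed level of 10 of 10 neutrophil markers was 360.0 to 1246 CPM in VQ D1, 71.4 in VQ D4, 90.4 to 141 in VQ D5, 90.2 to 156 in tVk12653, 1833 to 3677 in V and 3389 to 9318 in WT. None of the 10 was at 0 in any library. The sum of 7 of 7 B cell markers was 175 to 184 CPM in VQ D1, 216 in D4, 72.8 to 78.7 in D5, 91.3 to 112 in tVk12653, 471 to 569 in V and 394 to 676 in WT. T and NK cell markers (8 of 8) summed to 2.82 to 4.31 CPM in VQ D1, 1.40 in D4, 4.24 to 5.11 in D5, 0 to 0.925 in tVk12653, 34.5 to 43.5 in V and 49.3 to 72.6 in WT. These sums differed between the transplanted groups and V or WT, and their part in the results was not tested. In bulk RNA, fewer cells of a type and less RNA per cell cannot be told apart.

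Map3k14 was low in VQ and high in tVk12653, and most other members that passed the test fell. Against WT, 5 of the 10 fell in VQ, beside 15.1% of all 11933 genes tested that fell: Map3k14, Nfkb1, Nfkb2, Traf2 and Birc3. Against V those 5 members also fell in VQ, beside 12.4% of genes, and against tVk12653 Map3k14 and Birc3 were lower in VQ, beside 4.19%. In tVk12653 against WT, Map3k14 and Nfkbia rose, beside 22.5% of 12835 genes, and Nfkb1, Traf2 and Tnfaip3 fell, beside 26.2%. In tVk12653 against V, Map3k14, Birc3 and Nfkbia rose, beside 21.1%, and Nfkb1 and Traf2 fell, beside 23.5%. Among single VQ donors, 5 members fell and 1 rose in D1 (background 27.5% lower and 23.8% higher), 9 fell in D4 (21.4%) and 9 fell in D5 (31.8%). The members' median log2 fold change against WT was -1.34 in VQ (all genes tested, 0.08) and -0.02 in tVk12653 (-0.06). By donor it was -0.44 for D1 (-0.05), -1.87 for D4 (-0.04) and -1.93 for D5 (-0.16). Single libraries and donors moved these counts: without donor D1, 8 members were called in VQ against WT, 8 against V and 6 against tVk12653, and without tVk12653 replicate 2 the calls in tVk12653 were 2 against WT and 3 against V. With only VQ and WT units fitted, 2 members were called in VQ against WT, and with a mean per group over 13 libraries 9 were. The latter fit takes recipients of a donor as replicates and leaves out the spread between VQ donors, so its calls do not speak of VQ as a whole. VQ against V had 3 calls without any 1 V library or donor D4, tVk12653 against V had 3 without V replicate 1 or 3, and D1 against WT had 2 without D1 replicate 2. The comparisons share their WT, V or VQ libraries, and D4 is 1 library whose spread is taken to be that of the other groups. Library ranges that do not overlap were common over all genes tested. Against WT their share was 38.6% for VQ, 65.8% for tVk12653 and 18.0% for V. Against V it was 35.9% for VQ and 64.3% for tVk12653. By donor against WT it was 68.9% for D1, 78.9% for D4 and 73.8% for D5, and between D1 and D5 it was 74.6%. The share of all genes whose transplanted libraries all lay apart from all of V and WT is not given here, so such separations below are descriptions.

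**Figure D1:**
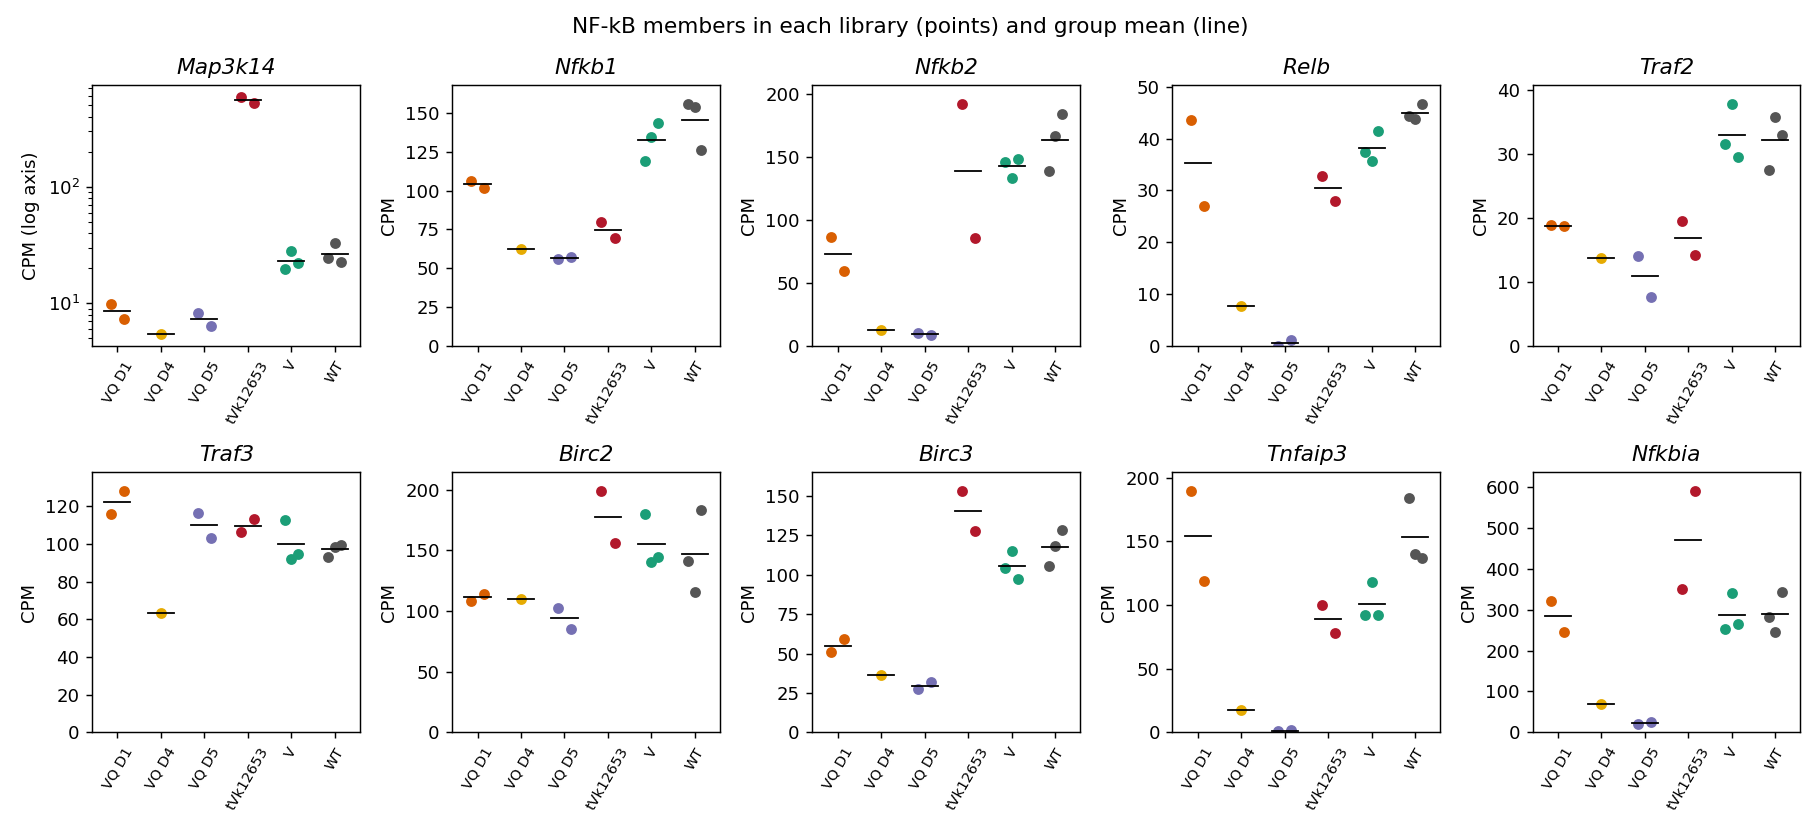
CPM of each of the 10 genes (1 panel each, CPM on the vertical axis, logarithmic for Map3k14 alone) in the 13 libraries, with a point per library and a line at the group mean. Map3k14 stands at 522 and 592 CPM in tVk12653 and at 33.2 CPM or less in every other library, and Relb and Tnfaip3 reach their lowest points in VQ D5.

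Map3k14 encodes NIK, the kinase that starts the alternative pathway (chromosome 11, 103219764 to 103267401, minus strand). It had 9.96 and 7.39 CPM in VQ D1, 5.48 in VQ D4, 8.21 and 6.39 in VQ D5, 592 and 522 in tVk12653, 19.7, 28.1 and 22.1 in V, and 24.6, 33.2 and 22.5 in WT. The tVk12653 libraries were far above all others, the 5 VQ libraries were below every V and WT library, and V and WT overlapped. In tVk12653 it was 20.9-fold higher than in WT (log2 4.39 ± 0.18, adjusted p = 2.03e-09), the 257th highest fold change of 12835, and 23.7-fold higher than in V (4.57 ± 0.19, adjusted p = 1.22e-09). In VQ it fell 3.66-fold against WT (-1.87 ± 0.23, adjusted p = 0.000527) and 3.22-fold against V (-1.69 ± 0.23, adjusted p = 0.00123). Set directly against tVk12653, VQ was 76.1-fold lower (-6.25 ± 0.27, adjusted p = 6.26e-06), beside 4.19% of genes that were lower. By donor the log2 fold change against WT was -1.66 in D1, -2.27 in D4 and -1.86 in D5. D1 and D5 did not differ beyond their spread (0.20 ± 0.27, adjusted p = 0.584, 95% interval -0.34 to 0.74). The annotation places 1700028N14Rik within the Map3k14 locus on the same strand, so reads of that gene could be counted with it.

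The nearest tested genes on either side of Map3k14 moved far less upward than it, or downward, in tVk12653. Fmnl1, a formin of blood cells, had 3.00 to 3.62 CPM in tVk12653 and 140.5 to 306 in WT (-6.08, adjusted p = 6.76e-06). On the other side, Arhgap27 had 13.6 to 16.7 CPM in tVk12653 and 26.1 to 43.9 in WT (-1.19, adjusted p = 0.00182). Further out the neighbours moved both ways. Hexim1 and Hexim2, inhibitors of the elongation kinase P-TEFb, rose in tVk12653 (log2 0.67, adjusted p = 0.0136 for Hexim1 and 2.01, adjusted p = 0.00043 for Hexim2). Arhgap27os3 and Plekhm1, a lysosomal adaptor, fell (-3.07, adjusted p = 0.0132 for Arhgap27os3 and -0.61, adjusted p = 0.0101 for Plekhm1).

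**Figure D2:**
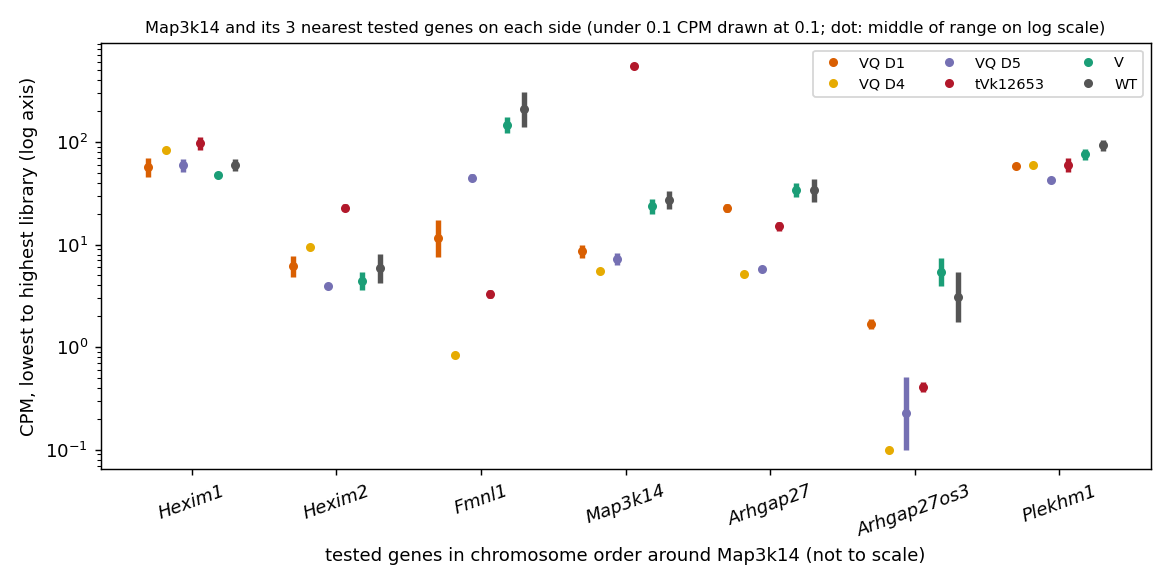
CPM (logarithmic axis) of Map3k14 and the 3 nearest tested genes on each side in chromosome order, with a bar from the lowest to the highest library of each group and a dot at its middle; values under 0.1 CPM are drawn at 0.1. Map3k14 is at 522 to 592 CPM in tVk12653, where Fmnl1 beside it is at 3.00 to 3.62 CPM.

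Of the complex that destroys NIK, the adaptor Traf2 and the ligase Birc3 fell in VQ, and Traf3 and Birc2 did not pass the test there. Traf2 (chromosome 2, 25517982 to 25546940, minus strand) had 18.8 and 18.7 CPM in VQ D1, 13.8 in VQ D4, 14.0 and 7.67 in VQ D5, 19.4 and 14.1 in tVk12653, 31.6, 37.7 and 29.5 in V, and 27.5, 35.8 and 33.0 in WT. All 7 transplanted libraries were below all 6 of V and WT. It fell in VQ against WT (-1.10 ± 0.26, adjusted p = 0.01) and V (-1.14 ± 0.26, adjusted p = 0.0105), and in tVk12653 against WT (-0.92 ± 0.27, adjusted p = 0.0106) and V (-0.96 ± 0.27, adjusted p = 0.0096). Without tVk12653 replicate 2 its fall in that group had adjusted p = 0.0979 against WT and 0.092 against V. VQ and tVk12653 did not differ beyond their spread in Traf2 (-0.16 ± 0.29, adjusted p = 0.729, 95% interval -0.72 to 0.40).

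Traf3, the adaptor that recruits NIK (chromosome 12, 111166321 to 111267155, plus strand), had 116 and 128 CPM in VQ D1, 63.2 in VQ D4, 116 and 103 in VQ D5, 106 and 113 in tVk12653, 113, 91.8 and 94.4 in V, and 93.3, 98.4 and 99.5 in WT. Of the 6 groups only VQ D4 had a library below the lowest WT or V library. In VQ against WT it did not pass (0.09 ± 0.24, adjusted p = 0.79, 95% interval -0.38 to 0.56), nor in tVk12653 (0.18 ± 0.13, adjusted p = 0.28). It fell in D4 (-0.62 ± 0.17, adjusted p = 0.00916) and rose slightly in D1 (0.33 ± 0.13, adjusted p = 0.0414). The D1 call was lost with any 1 WT library, either D1 library or V replicate 3 left out or with DESeq2 (adjusted p 0.0506 to 0.214). Of its neighbours, Rcor1, a corepressor, fell in D4 (-0.85, adjusted p = 0.00481), Tecpr2, an autophagy gene, rose there (1.20, adjusted p = 0.00749), and Ankrd9, Amn and the kinase gene Cdc42bpb did not pass (-0.34, adjusted p = 0.695 for Ankrd9, 1.47, adjusted p = 0.332 for Amn and 0.43, adjusted p = 0.201 for Cdc42bpb). Tnfaip2 was at 0 counts in D4. Both the Traf2 and the Traf3 locus overlap another annotated gene on the opposite strand (Gm13433 and 4930595D18Rik), whose reads cannot be told apart where counting ignored strand.

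Birc2, which encodes cIAP1 (chromosome 9, 7818226 to 7837131, minus strand), had 108 and 114 CPM in VQ D1, 110.1 in VQ D4, 103 and 84.9 in VQ D5, 199 and 156 in tVk12653, 180.0, 141 and 144 in V, and 141, 116 and 183 in WT. The VQ libraries lay below every V, WT and tVk12653 library, and tVk12653, V and WT overlapped. The VQ difference did not pass against WT (-0.43 ± 0.20, adjusted p = 0.121), V (-0.51 ± 0.20, adjusted p = 0.0752) or tVk12653 (-0.70 ± 0.22, adjusted p = 0.0671). Among the donors it fell in D5 (-0.65 ± 0.19, adjusted p = 0.00902), and that call was lost without D5 replicate 2 (adjusted p = 0.103). In D4 it did not pass (-0.42 ± 0.24, adjusted p = 0.173).

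Birc3, which encodes cIAP2 and lies beside Birc2 (chromosome 9, 7847468 to 7873205, minus strand), had 50.9 and 59.3 CPM in VQ D1, 36.7 in VQ D4, 27.3 and 31.7 in VQ D5, 153 and 128 in tVk12653, 104, 115 and 97.4 in V, and 105, 118 and 128 in WT. The tVk12653 and WT libraries overlapped, as did WT and V, and the VQ libraries were lowest, with D1 above D4 and D5. It fell in VQ against WT (-1.46 ± 0.23, adjusted p = 0.00173), V (-1.32 ± 0.23, adjusted p = 0.00362) and tVk12653 (-1.72 ± 0.25, adjusted p = 0.00448), the last with adjusted p = 0.165 where only those groups were fitted. In tVk12653 it was higher than in V (0.42 ± 0.14, adjusted p = 0.0291), a call lost without V replicate 1, V replicate 3 or tVk12653 replicate 1 (adjusted p 0.0626 to 0.25), and did not pass against WT (0.26 ± 0.14, adjusted p = 0.144). Of the genes next to the pair, Yap1, a Hippo pathway coactivator, had 120.0 to 133 CPM in VQ D1, 85.7 in D4, 89.0 to 98.1 in D5, 97.1 to 133 in tVk12653, 3.56 to 28.1 in V and 2.95 to 12.7 in WT. It rose in each transplanted group, as in D1 (log2 fold change 4.09, adjusted p = 0.000523). How reads that align to both paralogs were counted is not given in the sources used here.

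Of the 3 transcription factor genes, Nfkb1 and Nfkb2 fell in VQ, and Nfkb2 and Relb were lowest in donors D4 and D5. Nfkb1, the gene of p105 and p50 (chromosome 3, 135584655 to 135691969, minus strand), had 106 and 102 CPM in VQ D1, 62.2 in VQ D4, 56.2 and 57.0 in VQ D5, 79.7 and 69.5 in tVk12653, 119, 134 and 143 in V, and 156, 154 and 126 in WT. All 7 transplanted libraries lay below all V and WT libraries, with D1 above D4, D5 and tVk12653. It fell in VQ against WT (-0.92 ± 0.23, adjusted p = 0.0131) and V (-0.79 ± 0.23, adjusted p = 0.0279), and in tVk12653 against WT (-0.95 ± 0.14, adjusted p = 7.49e-05) and V (-0.83 ± 0.14, adjusted p = 0.000295). The fall in VQ against V was lost with any 1 V library or the donor D4 left out (adjusted p 0.0558 to 0.0918). VQ and tVk12653 did not differ beyond their spread (0.04 ± 0.25, adjusted p = 0.927, 95% interval -0.46 to 0.54).

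Nfkb2, the gene of p100 and p52 (chromosome 19, 46300994 to 46312400, plus strand), had 86.4 and 59.4 CPM in VQ D1, 12.5 in VQ D4, 9.80 and 8.69 in VQ D5, 192 and 85.8 in tVk12653, 146, 133 and 149 in V, and 139, 167 and 184 in WT. D4 and D5 were far below every other library, D1 lay between them and WT or V, and the tVk12653 libraries lay wide apart, on either side of the V range. It fell in VQ against WT (-2.39 ± 0.66, adjusted p = 0.021) and V (-2.21 ± 0.66, adjusted p = 0.0327). The first call was lost without WT replicate 2 or 3 (adjusted p 0.0505 and 0.053), and the second without any 1 V library or donor D4 (adjusted p 0.0647 to 0.0812). Without donor D1 the fall was larger, at -3.89, adjusted p = 0.000196 against WT and -3.72, adjusted p = 0.000294 against V. In tVk12653 it did not pass against WT (-0.22 ± 0.27, adjusted p = 0.526); without tVk12653 replicate 1 it was lower (-0.91, adjusted p = 0.00727). By donor, the fall against WT was -1.18 in D1 (adjusted p = 0.00497, and 0.0672 without D1 replicate 2), -3.71 in D4 and -4.14 in D5. Psd overlaps the Nfkb2 locus on the opposite strand, and Gm43430 that of Nfkb1 on the same strand, so their reads could have been counted together.

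Relb, the partner of p52 (chromosome 7, 19606217 to 19629438, minus strand), had 43.6 and 26.9 CPM in VQ D1, 7.58 in VQ D4, 0 and 1.02 in VQ D5, 32.8 and 27.9 in tVk12653, 37.5, 35.6 and 41.5 in V, and 44.4, 43.9 and 46.6 in WT. In D5 these were 0 and 4 counts, and 3 counts equal 0.795 and 0.767 CPM there. D5 was lowest, D4 next, and D1, tVk12653, V and WT stood above them, with the higher D1 library above V and just under WT. Against WT, VQ did not pass as a whole (-1.69 ± 0.87, adjusted p = 0.164, 95% interval -3.40 to 0.02), and without donor D1 it did (-3.46, adjusted p = 0.00754). By donor it fell in D4 (-2.56 ± 0.40, adjusted p = 0.00017) and D5 (-6.35 ± 0.48, adjusted p = 1.01e-07) and did not pass in D1 (-0.37 ± 0.26, adjusted p = 0.253). The D5 value rests on few counts: with only replicate 2 of D5, the library with 4 counts, it was -5.42, adjusted p = 2.52e-06. In tVk12653 Relb did not pass (-0.56 ± 0.27, adjusted p = 0.0998), although both libraries were below all 3 of WT.

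Both inhibitors were low in donors D4 and D5 and at the WT level in D1. Nfkbia, the gene of IkBα, which retains NF-kB in the cytoplasm (chromosome 12, 55489409 to 55492647, minus strand), had 321 and 246 CPM in VQ D1, 69.7 in VQ D4, 21.5 and 25.3 in VQ D5, 351 and 589.7 in tVk12653, 253, 339 and 265 in V, and 281, 244 and 343 in WT. D5 was lowest and D4 next, while D1 lay within the WT range and tVk12653 above it. It rose in tVk12653 against WT (0.70 ± 0.22, adjusted p = 0.0186) and V (0.72 ± 0.22, adjusted p = 0.0181). Both calls rested on tVk12653 replicate 2, without which adjusted p was 0.337 against WT and 0.318 against V; the first was also lost without WT replicate 2 and the second without V replicate 1 or 3. Over the 3 VQ donors the difference from WT did not pass (-1.21 ± 0.67, adjusted p = 0.188), and without donor D1 it did (-2.63, adjusted p = 0.0028). The fall was -2.06 in D4 and -3.63 in D5, with adjusted p = 0.000293 and 3e-07.

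Tnfaip3, the gene of A20, which removes and edits ubiquitin chains on classical pathway components (chromosome 10, 19000910 to 19015410, minus strand), had 189 and 119 CPM in VQ D1, 17.3 in VQ D4, 1.06 and 1.79 in VQ D5, 100.1 and 78.2 in tVk12653, 92.2, 118 and 92.2 in V, and 184, 139.7 and 137 in WT. The D5 libraries held 4 and 7 counts. D5 and D4 were below all other libraries, D1 spanned the WT range, and tVk12653 and V overlapped each other below WT. Against WT it was 105-fold lower in D5 (-6.71 ± 0.36, adjusted p = 9.57e-09) and 8.86-fold lower in D4 (-3.15 ± 0.33, adjusted p = 7.74e-06), and in D1 the log2 difference was 0.00 (95% interval -0.40 to 0.40). Over the 3 donors it did not pass (-1.48 ± 1.02, adjusted p = 0.291); without D1 it did (-4.03, adjusted p = 0.00459). In tVk12653 it fell against WT (-0.78 ± 0.21, adjusted p = 0.00839), a call lost without tVk12653 replicate 2 (adjusted p = 0.0894), and did not pass against V (-0.17 ± 0.21, adjusted p = 0.538).

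**Figure D3:**
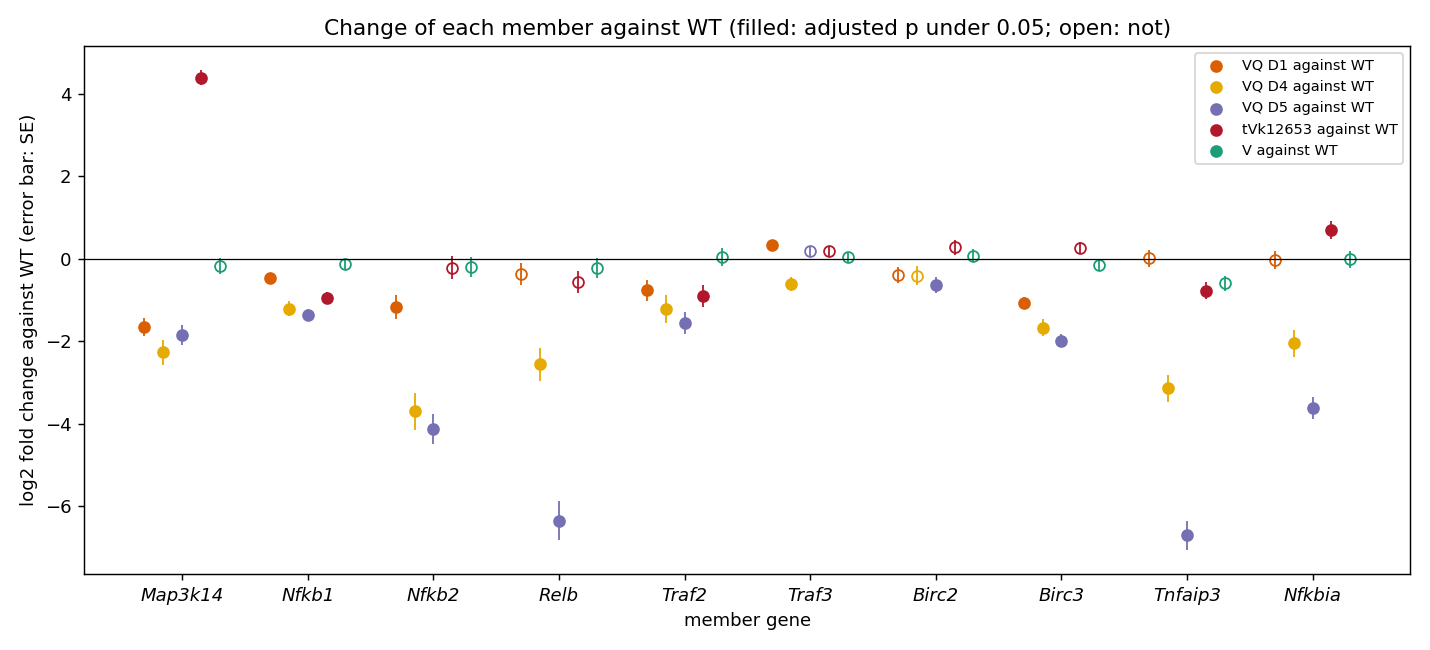
Log2 fold change of each member against WT (vertical axis, with standard error bars) for VQ D1, VQ D4, VQ D5, tVk12653 and V; filled points have an adjusted p under 0.05 and open points do not. Map3k14 is at 4.39 in tVk12653 and below 0 in every VQ donor, and Relb and Tnfaip3 are at -6.35 and -6.71 in D5.

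Donors D1 and D5 carried the same engineered alleles, and 7 of the 10 members were higher in D1, beside 20.0% of 12835 genes tested. Tnfaip3 averaged 154 ± 49.8 CPM in D1 and 1.42 ± 0.516 in D5 (SD, n = 2 each), a 105-fold difference (6.71 ± 0.37, adjusted p = 2.02e-08), the 135th highest of 12835. Relb averaged 35.3 ± 11.8 CPM in D1 and 0.511 ± 0.723 in D5 (5.98 ± 0.50, adjusted p = 5.27e-07), a log2 difference of 5.05 without D5 replicate 1, the library with no count. Nfkbia (3.59 ± 0.28, adjusted p = 9.07e-07) and Nfkb2 (2.96 ± 0.37, adjusted p = 7.08e-05) were higher by 12.1-fold for the first and 7.79-fold for the second. Smaller differences passed for Birc3 (0.91 ± 0.17, adjusted p = 0.000617) and Nfkb1 (0.88 ± 0.15, adjusted p = 0.000319). Traf2 passed narrowly (0.79 ± 0.29, adjusted p = 0.043) and was lost with DESeq2 (adjusted p = 0.0736) and without either D1 library, D5 replicate 2, WT replicate 3 or V replicate 1 or 3 (adjusted p 0.0523 to 0.35). Map3k14, Traf3 and Birc2, with log2 differences of 0.20, 0.15 and 0.25, did not pass. The median over the members was 0.89, against 0.05 over all genes tested. The summed level of 8 of 8 monocyte and macrophage markers was 651 to 763 CPM in D1, 1633 in D4 and 20.4 to 42.7 in D5. The highest of these sums was in D4. Most of that sum in D1 and D4 was Ly6c2, at 501 to 644 CPM in D1, 1541 in D4 and 2.38 to 22.2 in D5. Cd68 stood at 81.8 to 82.8 CPM in D1, 87.6 in D4 and 8.18 to 13.2 in D5. Lyz2 stood at 30.3 to 60.8 CPM in D1, 4.35 in D4 and 3.44 to 9.20 in D5. Fcgr1 was at 0 in D1, Csf1r, Ccr2 and Fcgr1 were at 0 in D4, and Adgre1 was at 0 in D5. Neutrophil markers summed to 360.0 to 1246 CPM in D1 and 90.4 to 141 in D5. The part of either in the member differences was not tested.

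In V, which carries Vκ*MYC and Cre with no transplant, no member passed the test against WT, and Tnfaip3 had the largest difference. In V against WT edgeR called 0 of 10 members, beside 0.187% of all genes, and DESeq2 called 0, beside 118 higher and 157 lower of 12337 genes. An unadjusted edgeR p under 0.05 was found for 1 member, beside 1872 of all 12835 genes. That gene was Tnfaip3, at 92.2, 118 and 92.2 CPM in V and 184, 139.7 and 137 in WT, with each V library below each WT library (-0.60 ± 0.19, adjusted p = 0.176). V and WT libraries of the same number had weakly correlated deviations (0.125 to 0.190), and the sources used here do not say that they are paired. With the replicate number as a block and V and WT fitted by themselves, Tnfaip3 passed (-0.59, adjusted p = 0.0357), beside 3.24% of genes lower there. With the replicate block among 13 libraries it did not pass (-0.58, adjusted p = 0.138), beside 0.374% of genes lower. The other 9 members had log2 differences of -0.23 (Relb) to 0.07 (Birc2). For Map3k14 the 95% interval was -0.55 to 0.19 and for Nfkb2 -0.68 to 0.28.

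Per kilobase of exon, which allows genes to be compared, Nfkbia led in 5 of the 6 groups. In WT its mean level was 179.9 CPM per kb, followed by Nfkb2 (35.7), Birc2 (32.0) and Birc3 (23.4), with Map3k14 lowest at 4.09. In tVk12653 Map3k14 was second, at 85.1 CPM per kb, behind Nfkbia at 292 and above Birc2 at 38.7. In D5 Birc2 (20.5) and Traf3 (14.9) stood above Nfkbia (14.5), and Relb was lowest at 0.132. D1 had Nfkbia (176) and Birc2 (24.3) on top, followed by Tnfaip3 at 21.3. Exon lengths are the union of annotated exons, so a gene that uses a short isoform is given too low a level.

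The rest of the pathway was followed with 65 genes in 4 lists. Against WT, 3 rose and 23 fell in VQ of 54 tested (17.3% and 15.1% of all genes), and 5 rose and 29 fell in tVk12653 of 56 (22.5% and 26.2% of all genes). In V, edgeR called 0 of 56 against WT (0.187% of all genes). Of the 56, 15 had an unadjusted edgeR p under 0.05, beside 1872 of all 12835 genes. DESeq2 called 4, beside 118 higher and 157 lower of 12337 genes. Between donors D1 and D5, 28 were higher and 6 lower in D1 (20.0% and 21.7% of all genes). Among 8 tested receptors, 1 rose and 2 fell in VQ against WT. The 2 that fell were Cd27 (-4.39 ± 1.07, adjusted p = 0.012) and Tnfrsf1b (-1.42 ± 0.34, adjusted p = 0.0117), and the 1 that rose was Ltbr. Ltbr, the lymphotoxin β receptor that signals to the alternative pathway, had 48.2 and 37.7 CPM in VQ D1, 53.8 in VQ D4, 49.6 and 51.4 in VQ D5, 25.9 and 25.0 in tVk12653, 9.37, 3.20 and 4.54 in V, and 5.63, 14.7 and 2.84 in WT. All transplanted libraries were above all of V and WT, and it rose in VQ (2.70 ± 0.55, adjusted p = 0.00547) and tVk12653 (1.76 ± 0.48, adjusted p = 0.00984) against WT; without WT replicate 2 the log2 fold changes were 3.57 and 2.62, and without tVk12653 replicate 1 the second had adjusted p = 0.0515. Tnfrsf13b, the gene of TACI, a receptor of BAFF and APRIL, had 449.7 and 361 CPM in VQ D1, 526 in VQ D4, 121 and 112 in VQ D5, 405 and 345 in tVk12653, 631, 689 and 869 in V, and 667, 471 and 737 in WT, and fell in D5 (-2.42 ± 0.21, adjusted p = 3.84e-07). Tnfrsf17, the gene of BCMA, had 8.34 and 2.82 CPM in VQ D1, 32.2 in VQ D4, 58.6 and 83.6 in VQ D5, 20.6 and 23.9 in tVk12653, 109, 126 and 136 in V, and 149, 82.9 and 129 in WT. Against WT it fell in tVk12653 (-2.44 ± 0.35, adjusted p = 0.000171), in D1 (-4.63 ± 0.41, adjusted p = 4.48e-06) and in D4 (-1.90 ± 0.43, adjusted p = 0.00445).

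Of the ligands, 3 of 9 were tested in the fit of VQ as a whole, of which Tnf and Tnfsf13b, the gene of BAFF, fell against WT, beside 15.1% of all genes. Tnf had 3.17, 10.7 and 3.41 CPM in WT and at most 2.15 in any other library, so it passed the low-count filter through WT alone. A gene kept in that way can hardly be called other than lower than WT, so its call adds no support. Ltb, also tested, did not pass. It had 11.8 and 7.93 CPM in VQ D1, 4.64 in VQ D4, 0 and 0 in VQ D5, and 8.80, 20.6 and 9.38 in WT. Tnfsf13b had 1.35 and 2.50 CPM in VQ D1, 1.55 in VQ D4, 1.06 and 0.767 in VQ D5, 2.08 and 1.45 in tVk12653, 5.92, 7.47 and 11.7 in V, and 9.15, 14.7 and 8.24 in WT, with the transplanted libraries below all others (-2.71 ± 0.49, adjusted p = 0.00322 in VQ). The Tnf call was lost without WT replicate 2 (-2.27, adjusted p = 0.101). Tnf, Tnfsf13b and the neutrophil marker sum given above were each lower in the transplanted libraries than in WT. That sum was 360.0 to 1246 CPM in D1 and 90.2 to 156 in tVk12653. Tnfsf13b had 1.35 and 2.50 CPM in D1 and 2.08 and 1.45 in tVk12653. Tnf had 2.15 and 0.760 CPM in D1 and 0.231 and 0.724 in tVk12653, where 3 counts equal 0.693 and 1.09 CPM. The part of neutrophils in the ligand levels was not tested.

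Among 27 classical pathway genes and other regulators, 1 rose and 9 fell in VQ against WT, 1 rose and 11 fell in tVk12653, and 15 were higher and 4 lower in D1 than in D5. Over all genes, 17.3% rose and 15.1% fell in VQ, 22.5% rose and 26.2% fell in tVk12653, and 20.0% were higher and 21.7% lower in D1. Cyld, a deubiquitinase that restrains NF-kB, had 4.31 and 2.50 CPM in VQ D1, 216 in VQ D4, 57.0 and 45.2 in VQ D5, 126 and 144 in tVk12653, 355, 277 and 292 in V, and 295, 236 and 324 in WT. D1 was nearly without it (-6.50 ± 0.26, adjusted p = 1.88e-09), and had less of it than D5 (-4.02 ± 0.27, adjusted p = 7.64e-08). Nfkbie, the gene of IkBε, had 53.6 and 31.5 CPM in VQ D1, 3.65 in VQ D4, 1.85 and 3.83 in VQ D5, 93.6 and 83.7 in tVk12653, 53.3, 62.3 and 63.9 in V, and 76.8, 74.1 and 82.2 in WT, low in D4 and D5 (3.86 ± 0.33, adjusted p = 6.1e-07 for D1 against D5). Bcl3, a nuclear partner of p50 and p52 dimers, had 14.0 and 9.99 CPM in VQ D1, 3.23 in VQ D4, 0.530 and 1.28 in VQ D5, 19.0 and 10.5 in tVk12653, 33.0, 25.6 and 21.4 in V, and 16.2, 28.8 and 25.9 in WT, and was likewise higher in D1 than in D5 (3.65 ± 0.54, adjusted p = 8.9e-05). Map3k7, the gene of TAK1, which activates IKK, was higher in VQ than in V (0.82 ± 0.18, adjusted p = 0.00886) and tVk12653 (0.79 ± 0.20, adjusted p = 0.0373). The second call was lost without either tVk12653 library, among others (adjusted p 0.151 and 0.3). Malt1, a protease that acts in NF-kB signalling, had 103 and 137 CPM in VQ D1, 57.9 in VQ D4, 63.1 and 62.4 in VQ D5, 60.8 and 75.7 in tVk12653, 243, 162 and 245 in V, and 235, 221 and 259 in WT; each transplanted library was below every V and WT library, and it fell in tVk12653 against WT (-1.81 ± 0.20, adjusted p = 4.87e-06).

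Among the NF-kB target genes, 1 of 16 rose and 10 fell in VQ against WT, and 3 of 17 rose and 10 fell in tVk12653, beside 17.3% of all genes higher and 15.1% lower in VQ and 22.5% higher and 26.2% lower in tVk12653. Cd83, a surface marker of activated B and dendritic cells, had 0 and 0.109 CPM in VQ D1, 0 in VQ D4, 0 and 0.256 in VQ D5, 0 and 1.45 in tVk12653, 20.7, 37.0 and 21.4 in V, and 93.0, 40.5 and 41.5 in WT. Plek, the gene of pleckstrin, had 6.19 and 2.82 CPM in VQ D1, 8.15 in VQ D4, 1.32 and 1.02 in VQ D5, 2.08 and 1.81 in tVk12653, 89.3, 93.6 and 135 in V, and 117, 167 and 159.8 in WT. In both genes each transplanted library was far below all of V and WT; Plek had a log2 fold change of -5.05 ± 0.54 in VQ and -6.21 ± 0.37 in tVk12653 against WT, with adjusted p = 0.000283 and 4.21e-08. Cd74, the MHC class II chaperone, had 3253 and 2514 CPM in VQ D1, 2899 in VQ D4, 3.97 and 11.2 in VQ D5, 4012 and 5274 in tVk12653, 4439, 3400.2 and 4071 in V, and 4151, 2889 and 3171 in WT. The D5 libraries stood far below all others (8.55 ± 0.42, adjusted p = 4.63e-08 for D1 against D5). Bcl2l1, the gene of the survival protein BCL-XL, was also higher in D1 than in D5 (5.05 ± 0.52, adjusted p = 2.11e-05), at 109.8 and 108 CPM in D1 and 3.18 and 3.32 in D5. Il2rg, the common cytokine receptor gamma chain, had 26.4 and 16.4 CPM in VQ D1, 3.79 in VQ D4, 0.795 and 0.511 in VQ D5, 32.6 and 37.3 in tVk12653, 58.2, 63.3 and 84.4 in V, and 56.3, 73.0 and 113 in WT, again higher in D1 than in D5 (4.94 ± 0.56, adjusted p = 1.49e-05). Gadd45b, a stress response gene, was lower in VQ than in tVk12653 (-1.43 ± 0.28, adjusted p = 0.0132), a call lost without either tVk12653 library (adjusted p 0.087 and 0.0957). The median log2 fold change of the target list in VQ against WT was -1.44, beside 0.08 over all genes tested. The dendritic cell marker sum (6 of 6) was 14.9 to 16.4 CPM in VQ D1, 7.73 in D4, 1.53 to 3.18 in D5, 4.16 to 8.33 in tVk12653, 30.9 to 49.3 in V and 71.1 to 95.1 in WT, with Clec9a at 0 in D4, D5 and tVk12653. The neutrophil and B cell marker sums were lower in the same groups, and the part of non-plasma cells in these values was not tested.

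**Figure D4:**
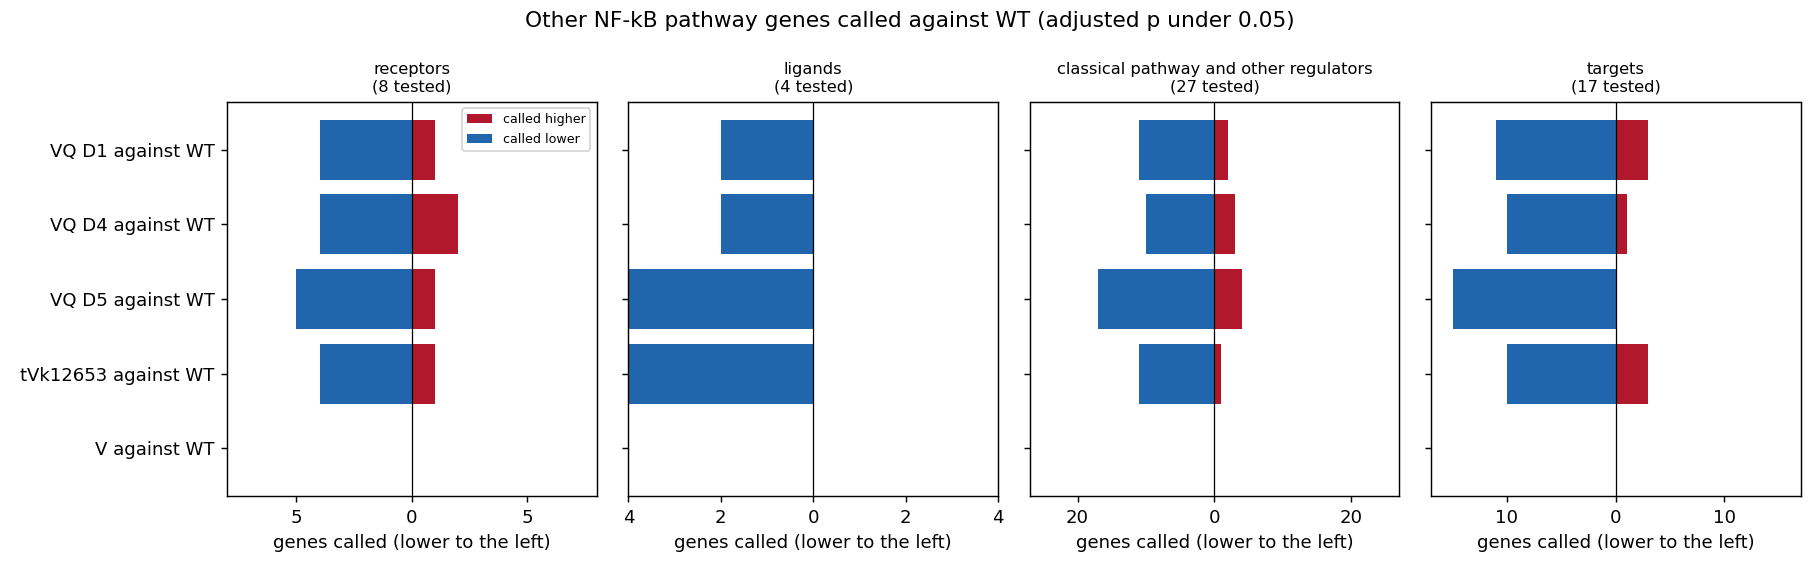
Number of tested genes of the 4 lists (receptors, ligands, classical pathway and other regulators, targets) called higher (to the right of 0) or lower (to the left) against WT, for VQ D1, VQ D4, VQ D5, tVk12653 and V from top to bottom. In VQ D5, 15 of 17 targets are lower, beside 31.8% of all genes tested. V has no bar in any list, beside 0.187% of all genes called there.

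The genes whose pattern over the 13 libraries was most like that of 3 members were found by the root mean square difference of centred log2 CPM (pseudocount 0.5), as a description. For Map3k14 they were Maoa, Acvr1, Ccdc62, Cdc42bpa and Scrn1, at 0.50 to 0.81 log2 units. Maoa, monoamine oxidase A, averaged 32.6 CPM in tVk12653, 1.76 in V and 0.916 in WT. Closest to Nfkb2 were Bcl3, Swap70, Ticam2, Nfkbie and Rasal1, at 0.43 to 0.51 log2 units. Bcl3 and Nfkbie, which are NF-kB regulators from the lists, were thus among the 5 closest of 5189 candidate genes. Swap70, a signalling adaptor of B cells, averaged 121 CPM in D1, 39.2 in D4, 30.3 in D5, 455 in tVk12653, 477 in V and 472 in WT. Traf3 varied little, and Zcchc10, Usp37, Rbck1, Rad50 and Stx12 followed it within 0.16 log2 units.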

How the data were processed

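Libraries of sorted bone marrow cells were made with a stranded total RNA kit for low input, per the labels' protocols. The authors deposited 1 table of raw counts per gene symbol, without normalization. STAR 2.6.1d and build GRCm38.p6 are named in the submitters' processing notes; not given in the sources used here are the counting tool, annotation, strand setting and treatment of multiply aligned reads.

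From the counts, TMM factors were computed and low genes were dropped by filterByExpr (at least 10 counts, at least 15 in total). Tests were edgeR's robust quasi-likelihood tests (edgeR 4.0.16, R 4.3.3), adjusted by Benjamini-Hochberg at 0.05. Comparisons of VQ as a whole used 11 units with 1 mean per arm, the libraries of each of the 3 VQ donors summed (biological coefficient of variation 0.409); the others used 13 libraries with 1 mean per group (0.195). Libraries of 1 group differed beyond counting error (chi-square per degree of freedom 4.97 to 14.4), so none was counted as a duplicate, and floors of 3 counts cover counting error only. On simulated data with 100 genes changed 4-fold, the tests recovered 55% in VQ against WT (11624 genes), 41% in VQ against tVk12653 (11632), 70% in tVk12653 against WT (12181), 81% in V against WT (12217) and 63% in D1 against D5 (12180). For 100 genes changed 2-fold these were 3, 1, 33, 45 and 37%. No other genes were changed. The data had far more calls, such as 3872 in VQ against WT, except in V against WT (24). Adjustment was thus stricter in the simulations, and these shares do not give the power of the reported tests.

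The members and gene lists were chosen with earlier results of these data known. All members are named. From each list and comparison at most 4 genes were nameable, those with an adjusted p under 0.05 and the largest absolute log2 fold change, and the text names some of these. Neighbours are the 3 nearest tested genes on each side. Symbols matched RefSeq for 22000 of 22997; exon lengths and overlapping genes are from the GENCODE annotation of GRCm38.

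The titles number the replicates, and the sources used here do not say that V and WT libraries of the same number are paired. Same-number V and WT libraries had deviations weakly correlated at 0.190, 0.158 and 0.125, and different numbers at -0.144 to -0.0380. Deviations within a group sum to 0, so these values depend on each other and cannot establish a pairing. Alternatives were other size factors, other filters, DESeq2 1.42.0, other fits, a replicate block and each library or donor left out.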

Additional observations from a re-analysis of the deposited data

Results flagged for a closer look

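The difference from WT itself differed between VQ and tVk12653 in 2 members, by the test of VQ against tVk12653. Both were lower in VQ, beside 4.19% of 11933 genes tested. Library ranges of VQ and tVk12653 did not overlap in 33.1% of those genes. For Map3k14 the log2 difference was -6.25 (edgeR adjusted p = 6.26e-06), with 5 of 5 VQ libraries below both tVk12653 libraries. For Birc3 it was -1.72 (edgeR adjusted p = 0.00448), again in 5 of 5 libraries; with only the groups compared Birc3 had adjusted p = 0.165.

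Between donors D1 and D5 the difference from WT differed in 7 members, beside 20.0% of 12835 genes tested that were higher in D1. Both D1 libraries were above both D5 libraries in each of the 7. Over all genes tested, 74.6% had D1 and D5 ranges that did not overlap (4975 higher and 4602 lower in D1). The log2 differences were 6.71 for Tnfaip3, 5.98 for Relb, 3.59 for Nfkbia, 2.96 for Nfkb2, 0.91 for Birc3, 0.88 for Nfkb1 and 0.79 for Traf2. Their edgeR adjusted p-values were 2.02e-08 for Tnfaip3 to 0.043 for Traf2. With 2 recipients a donor, these tests speak of the recipients of D1 and D5.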

How the results depend on the processing

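Log2 fold changes of the members kept their direction and side of the threshold in 1883 recomputed values; 50 passed only under the alternative, 64 passed only in the reported fit, and no called value changed sign. The number of members called in VQ against WT, 5 as reported, was 9 with 13 libraries and 1 mean per group (9 with the replicate block added) and 2 with only the groups compared. In VQ against V, also 5, it was 9 (9 with the block) and 3. In VQ against tVk12653, 2 as reported, it was 7 (7 with the block), 1 with only the groups compared and 5 with DESeq2. The fits of VQ with 13 libraries leave out the spread between its donors. In tVk12653 the 5 calls against WT and the 5 against V were 3 each with 11 units. For V against WT, 0 members as reported, 1 (Tnfaip3) was called without a low count filter and 1 with the replicate block in V and WT alone. Leaving out WT replicate 2 together with D1 replicate 1, D1 against WT had 3 calls in place of 6. Left out 1 at a time, libraries or donors gave 4 to 8 calls in VQ against WT, 3 to 8 in VQ against V, 2 to 6 in VQ against tVk12653, 2 to 6 in tVk12653 against WT, 3 to 5 in tVk12653 against V and 2 to 6 in D1 against WT. The highest VQ values came without donor D1, the low values in tVk12653 without its replicate 2 or V replicates 1 or 3, and the low value in D1 without D1 replicate 2. D1 against D5 (6 to 7), D4 against WT (9 to 10) and D5 against WT (8 to 9) stayed within 1.5 times. The cause was not tested. With the replicate block among 13 libraries, Traf2 in D1 against D5 and Traf3 in D1 against WT no longer passed, though the sources used here give no pairing of libraries by number.

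Over all genes, V against WT had 17 higher and 7 lower, and 138 higher and 341 lower with the block in V and WT alone, 118 higher and 157 lower with DESeq2 and 293 higher and 693 lower without a filter. VQ against tVk12653 had 712 higher and 500 lower, and 2319 higher and 2709 lower with 1 mean per group. Depth limits Relb and Tnfaip3 in D5, at 4 and 11 counts in all.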

Other observations

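The genes around Relb and Tnfaip3 were looked at after the values of these members were seen. Clptm1, next to Relb, had 208 to 210.3 CPM in D5 and 107 to 135 in WT (0.76, adjusted p = 0.000125), and Clasrp on the other side had 34.4 to 35.3 CPM in D5 and 41.9 to 56.0 in WT (-0.47, adjusted p = 0.0284). On one side of Tnfaip3 the nearest tested gene, Perp, had 8.18 to 8.48 CPM in D5 and 0 to 5.12 in WT (1.76, adjusted p = 0.059), and Hebp2 had 1.79 to 4.77 CPM in D5 and 0 to 0.853 in WT (3.23, adjusted p = 0.0256). Arfgef3, between these genes, had 317 to 339 CPM in D5 and 18.8 to 34.5 in WT (3.52, adjusted p = 0.0001), while Ifngr1, the interferon gamma receptor gene on the other side, had 18.8 to 28.4 CPM in D5 and 43.2 to 93.3 in WT (-1.39, adjusted p = 0.00187). The p-values are edgeR's over all genes tested.

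Cep126, one of the 3 nearest tested genes on one side of Birc3, had 19.9 to 25.8 CPM in VQ D1, 3.23 in D4, 1.06 to 6.39 in D5, 25.4 to 31.7 in tVk12653, 0 to 0.493 in V and 0 to 0.569 in WT, with every transplanted library above every V and WT library. Tnfaip2, one of the 3 nearest tested genes on one side of Traf3 and a tumour necrosis factor induced gene, had 2.06 to 5.11 CPM in VQ D1, 0 in D4, 0.265 to 0.511 in D5, 0 to 1.16 in tVk12653, 6.49 to 11.4 in V and 15.6 to 64.9 in WT.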
